A study of Mus musculus with 8 samples.

Results

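The genes described here are 9 immediate early genes: Egr1, Egr2, Egr3, Nr4a1, Myc, Ier2, Ier3, Arc and Zfp36. All probe sets annotated to just 1 of these genes were taken, which gave 10 probe sets of the 22626 on the array and 9 of the 12393 genes. Egr2 had a pair of probe sets and each other gene had 1. Mouse embryonic fibroblasts of mixed C57BL/6 x 129Ola background were compared in 4 genotypes: Tbk1-/- Ikbke-/- double mutants, Tbk1-/-, Ikbke-/- and wild type (WT). Tbk1 and Ikbke encode related kinases that act below sensors of foreign nucleic acid. Fibroblasts of each genotype were transfected for 4 h with B-DNA, the synthetic double-stranded DNA poly(dA-dT)-poly(dT-dA), or were mock treated without it. Each of the 8 combinations was measured on 1 Affymetrix array, and the labels give neither the number of embryos nor of cultures behind an array. A difference within 1 genotype therefore has no replicate check. The p-values below rest on what the fits leave unexplained between genotypes, moderated over all genes, and not on replicate arrays.

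Immediate early genes are transcribed soon after growth factors or stress reach a cell, without new protein synthesis. In fibroblasts a major route runs from growth factor receptors through Ras and the MAP kinases to Elk1, which binds DNA together with serum response factor (SRF) at a sequence called the CArG box. Their mRNAs are short-lived, and many of their products are transcription factors that act on later genes. Fewer cells that express a gene and less RNA per cell cannot be told apart in these measurements.

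Promoter sequence of 250 bases upstream of the start was held in the RefSeq table (build GRCm38.p6) for 4 members that are shown here, because known promoter motifs were searched in them on both strands. Capitals mark the matches. The Egr2 window lies at chr10:67537680-67537929 on the plus strand, the Ier3 window at chr17:35821463-35821712 on the plus strand, the Nr4a1 window at chr15:101266596-101266845 on the plus strand, and the Zfp36 window at chr7:28379229-28379478 on the minus strand.
Egr2: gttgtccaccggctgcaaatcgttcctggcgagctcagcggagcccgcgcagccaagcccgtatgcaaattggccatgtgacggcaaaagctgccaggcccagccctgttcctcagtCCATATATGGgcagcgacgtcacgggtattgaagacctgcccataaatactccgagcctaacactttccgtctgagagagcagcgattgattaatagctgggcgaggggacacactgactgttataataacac
Ier3: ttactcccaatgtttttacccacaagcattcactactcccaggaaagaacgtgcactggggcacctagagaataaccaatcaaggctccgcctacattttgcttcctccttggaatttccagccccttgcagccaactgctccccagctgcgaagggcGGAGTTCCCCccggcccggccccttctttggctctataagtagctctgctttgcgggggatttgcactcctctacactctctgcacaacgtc
Nr4a1: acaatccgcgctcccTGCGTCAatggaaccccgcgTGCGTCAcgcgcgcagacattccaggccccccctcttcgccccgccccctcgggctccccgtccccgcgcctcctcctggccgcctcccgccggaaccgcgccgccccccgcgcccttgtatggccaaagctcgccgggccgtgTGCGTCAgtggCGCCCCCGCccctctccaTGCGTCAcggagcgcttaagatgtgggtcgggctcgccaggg
Zfp36: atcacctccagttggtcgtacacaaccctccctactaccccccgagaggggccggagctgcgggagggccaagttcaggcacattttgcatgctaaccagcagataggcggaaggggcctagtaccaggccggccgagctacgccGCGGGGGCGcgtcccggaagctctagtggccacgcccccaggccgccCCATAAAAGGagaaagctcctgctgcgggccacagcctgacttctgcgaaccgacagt
A CArG box stood 133 to 124 bases upstream in Egr2 and 58 to 49 bases upstream in Zfp36. This motif occurs in 1.47% of all 32841 promoter windows of that length. The Egr2 window was 1 of 5 listed for that gene, 4 of which hold a CArG box. It was chosen for having the most CArG boxes, so its match follows from that choice. The 1.47% is a share of windows not chosen in that way. Zfp36 also held the Egr site GCGGGGGCG, found in 2.57% of windows, 105 to 97 bases upstream, and Nr4a1 held it on the opposite strand 60 to 52 bases upstream. Nr4a1 held TGCGTCA 4 times, the nearest 42 to 36 bases upstream. That motif occurs in 1.75% of windows and was added after the sequence had been seen. An NF-kB site, found in 7.25% of windows, stood on the opposite strand 92 to 83 bases upstream in Ier3. These are matches of letters and were not tested for binding.

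Signals are given after each array was scaled to a trimmed mean of 500. Values under 122, the 40th percentile of all signals, were set to that floor, and a gene was called higher or lower at a ratio of at least 2 with the higher signal at 244 or more. Of all genes, 9626 reached the floor on at least 1 array. The factors used for scaling ran between 1.96 and 3.58, the highest being that of the double mutant mock array. The 3' to 5' signal ratio of Gapdh, a measure of RNA integrity, was 0.78 to 0.92 over the 8 arrays. That of Actb was 1.30 and 1.32 on the Tbk1-/- B-DNA and mock arrays and 0.94 to 1.18 on the other 6, and its part in the higher member signals of Tbk1-/- cells was not tested. Signal of Tbk1 was 389.6 and 290.01 on the double mutant B-DNA and mock arrays and 305 and 226 in Tbk1-/- cells, against 989 and 501 in WT cells. Signal of Ikbke lay below the floor throughout and gives no check of its labels. Xist was at 138 to 209 on the double mutant and Ikbke-/- arrays and at 2950.1 to 3766 on the Tbk1-/- and WT arrays, so Ikbke genotype and sex of the embryos cannot be told apart. Fibroblast markers reached 244 for 11 to 13 of 13 genes on every array. Macrophage markers did so for 14 of 18 genes on the WT mock array, with a summed signal of 16456, and for 11 on the WT B-DNA array, with 5685, against 1 or 2 genes on each of the other 6 arrays, with 1545 to 1998. The part of those cells in any value from WT arrays was not tested. Of the 13 fibroblast markers, 1 was called lower and 2 higher on the double mutant mock than on the WT mock array. Of all genes, 5.51% were lower and 5.56% higher there.

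The Egr genes encode zinc finger transcription factors. Egr1 is the best known growth factor-induced member of the family. Its signal was 4863 on the B-DNA and 2959 on the mock array of double mutant cells, 5626 and 6932 in Tbk1-/- cells, 7115 and 7269 in Ikbke-/- cells, and 5592 and 8068 in WT cells. The double mutant mock array stood lowest. The log2 ratio of B-DNA over mock was 0.72 in double mutant, -0.30 in Tbk1-/-, -0.03 in Ikbke-/- and -0.53 in WT cells, and none reached the fold threshold. Egr2, known for its role in Schwann cell myelination, had signals of 313 with B-DNA and 184 in mock double mutant cells, 528 and 663 in Tbk1-/- cells, 192 and 324 in Ikbke-/- cells, and 240.1 and 500.4 in WT cells. Its log2 ratio of -1.06 in the WT pair was called lower, while those of the double mutant (0.77), Tbk1-/- (-0.33) and Ikbke-/- (-0.76) pairs were not called. The second Egr2 probe set reached the floor on the WT mock array alone, at 188, and was at 26.5 to 114 elsewhere. Egr3, needed for muscle spindles, varied least of the 9 genes, by 1.89-fold between its highest and lowest arrays. Its signal was 309.9 with B-DNA and 302 in mock double mutant cells, 203 and 293 in Tbk1-/- cells, 365 and 340.0 in Ikbke-/- cells, and 347 and 385 in WT cells.

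Nr4a1 encodes the orphan nuclear receptor Nur77. Its signal was 1242 with B-DNA and 817 in mock double mutant cells, 3979.7 and 5659 in Tbk1-/- cells, 947 and 2151 in Ikbke-/- cells, and 1051 and 2062 in WT cells. Both Tbk1-/- arrays stood above the other 6. The log2 ratio was -1.18 in Ikbke-/- cells, which was called lower, 0.60 in double mutant, -0.51 in Tbk1-/- and -0.97 in WT cells. Myc encodes a transcription factor that drives cell growth and division. It had 454 with B-DNA and 211 in mock double mutant cells, 1883 and 2514 in Tbk1-/- cells, 1432 and 1364 in Ikbke-/- cells, and 1388 and 1435 in WT cells. Both double mutant arrays lay below the other 6 for Myc. Its ratio was called higher in the double mutant pair, at a log2 value of 1.10, and was -0.42 in Tbk1-/-, 0.07 in Ikbke-/- and -0.05 in WT cells.

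**Figure D1:**
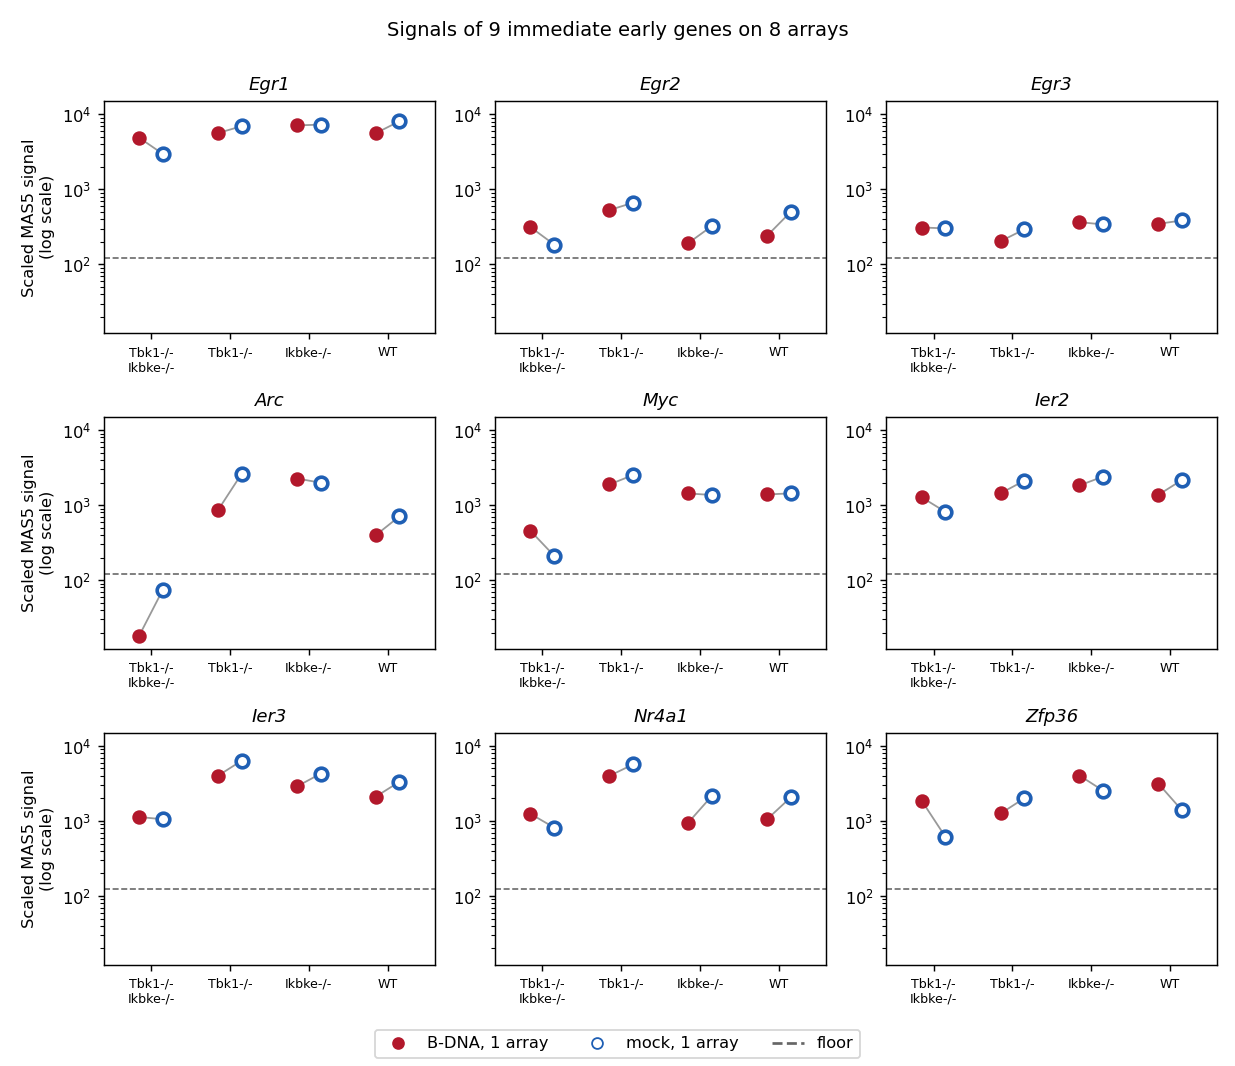
Scaled signal (log axis) of the 9 genes on each of the 8 arrays, with a point per array and a dashed line at the floor. The double mutant mock array is the lowest of the 8 for 7 of the genes, and the Tbk1-/- mock array is the highest for 5.

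Ier2 and Ier3 are early response genes, and the product of Ier3 is known for effects on cell survival. Ier2 had signals of 1271 with B-DNA and 813 in mock double mutant cells, 1436 and 2118 in Tbk1-/- cells, 1831 and 2401 in Ikbke-/- cells, and 1369 and 2166 in WT cells. No pair passed the threshold for Ier2: its log2 ratio was 0.64 in double mutant, -0.56 in Tbk1-/-, -0.39 in Ikbke-/- and -0.66 in WT cells. Ier3 had 1129.6 with B-DNA and 1052 in mock double mutant cells, 4009 and 6360.3 in Tbk1-/- cells, 2880.5 and 4258 in Ikbke-/- cells, and 2105 and 3329 in WT cells. Both double mutant arrays lay below the other 6 for Ier3, and its ratios of 0.10, -0.67, -0.56 and -0.66 in double mutant, Tbk1-/-, Ikbke-/- and WT cells were not called. Arc, a cytoskeleton-associated protein known from synaptic plasticity in neurons, was at 18.2 with B-DNA and 74.7 in mock double mutant cells, both under the floor. It had 859.7 and 2623 in Tbk1-/- cells, 2262 and 1992 in Ikbke-/- cells, and 397 and 708 in WT cells. Its log2 ratio of -1.61 in Tbk1-/- cells was called lower, and was 0.18 in Ikbke-/- and -0.84 in WT cells. Neuron markers reached 244 for 0 to 3 of 11 genes on the arrays. Their part in the Arc signal was not tested.

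Zfp36 encodes tristetraprolin, which binds AU-rich elements of cytokine and other mRNAs and promotes their decay. Its signal was 1856 with B-DNA and 614 in mock double mutant cells, 1257 and 2007 in Tbk1-/- cells, 4031 and 2532 in Ikbke-/- cells, and 3151 and 1384 in WT cells. Zfp36 was the 1 member with a ratio above 0 in the WT pair. It was called higher in double mutant cells, at a log2 ratio of 1.60, and in WT cells, at 1.19, and was 0.67 in Ikbke-/- and -0.68 in Tbk1-/- cells.

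Over the 9 genes, the fold call found 2 higher and 0 lower in double mutant cells, 0 higher and 1 lower in Tbk1-/- cells, 0 higher and 1 lower in Ikbke-/- cells, and 1 higher and 1 lower in WT cells. Among all genes tested, the same calls were made for 0.54% higher and 0.748% lower in double mutant cells, 0.291% and 0.405% in Tbk1-/- cells, 3.55% and 1.64% in Ikbke-/- cells, and 3.27% and 1.89% in WT cells. Most members lay under the threshold. The median log2 ratio of the members was 0.64 in double mutant, -0.52 in Tbk1-/-, -0.03 in Ikbke-/- and -0.66 in WT cells, where the median of all genes tested was 0 in each. Over the 6665 genes whose signal passed the floor on every array, that median was 0.02 in double mutant, 0.04 in Tbk1-/-, -0.11 in Ikbke-/- and -0.08 in WT cells. With the higher signal at 244 or more, a ratio above 0 was found for 8 members in double mutant cells, against 37% of genes, for 0 in Tbk1-/- cells, against 36.4%, for 4 in Ikbke-/- cells, against 25.1%, and for 1 in WT cells, against 29.3%. A ratio below 0 was found for 0 members in double mutant cells, against 33.8% of genes, for 9 in Tbk1-/- cells, against 28.8% of genes, for 5 in Ikbke-/- cells, against 41.5%, and for 8 in WT cells, against 40.8%. These shares are of all 9626 genes tested, so genes under 244 on both arrays of a pair lower both shares. Of genes at 244 or more, 3560 were above and 3254 below 0 in double mutant cells and 3507 and 2773 in Tbk1-/- cells. In Ikbke-/- cells 2416 and 3997 were, and in WT cells 2822 and 3924. For 7 members the ratio was above 0 in double mutant cells and below 0 in Tbk1-/- and WT cells, against 10.1% of genes, and for 5 of them it was also below 0 in Ikbke-/- cells, against 7.95%. Genes under the floor on both arrays of such a pair have a ratio of 0 there and could not show that pattern. That pattern was noticed after the values had been seen. With 1 array a group these are descriptions of the arrays.

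**Figure D2:**
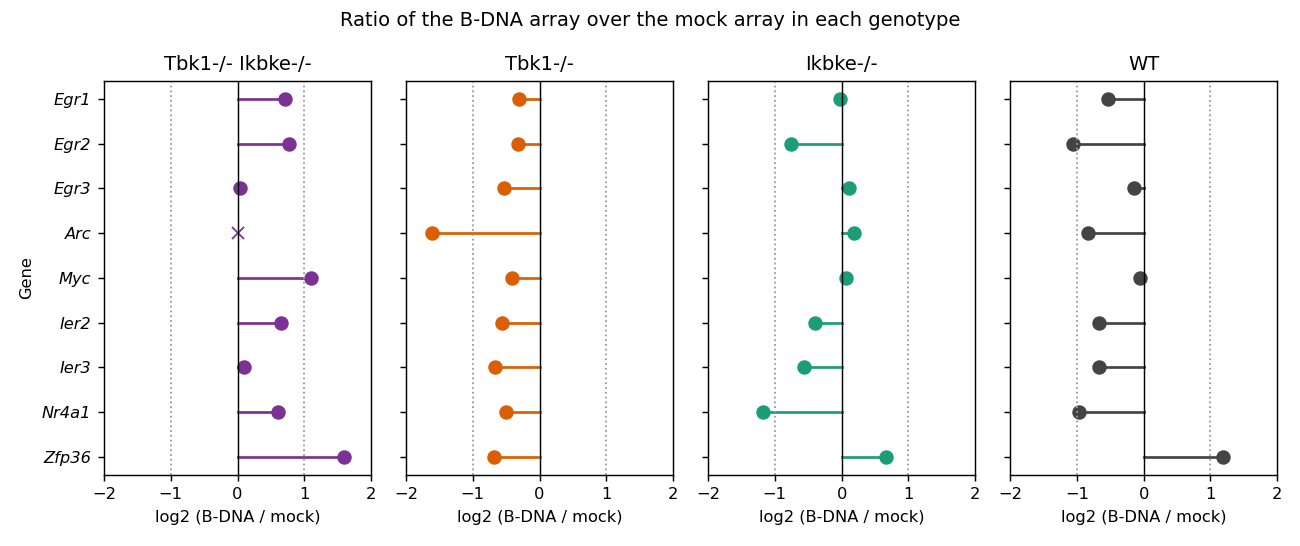
Log2 ratio of B-DNA over mock for the 9 genes in each genotype, with a point per gene. Most points lie above 0 in double mutant cells and below 0 in Tbk1-/- and WT cells, and a cross marks Arc in the double mutant, where both signals are under the floor. Dotted lines stand at 2-fold.

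Among the mock arrays, 8 of the 9 members were lowest in double mutant cells, as were 22.2% of genes. Over all 8 arrays the double mutant mock array was the lowest for 7 members, against 10.1% of genes, and the Tbk1-/- mock array the highest for 5, against 8.65%, counts made after the values had been seen. On the double mutant mock array, 8 of 9 were called lower than on the WT mock array and 0 higher, against 5.51% of genes lower and 5.56% higher. Myc was 6.79-fold lower in double mutant mock cells and Arc at least 5.80-fold lower. The log2 difference from the WT mock array was -1.45 for Egr1, -1.44 for Egr2, -1.34 for Nr4a1, -1.41 for Ier2, -1.66 for Ier3 and -1.17 for Zfp36, and Egr3, at -0.35, was not called. Against the Tbk1-/- mock array 8 members were called lower, where 6.78% of genes were (0 higher, against 8.54%), and against the Ikbke-/- mock array 7 were, where 6.53% of genes were (0 higher, against 8.17%). These 3 comparisons and the double mutant ratio all use the same double mutant mock array. On the Tbk1-/- mock array 2 members were called higher than on the WT mock array, against 2.23% of genes, and 0 lower, against 3.33%: Arc, by 1.89 on the log2 scale, and Nr4a1, by 1.46. On the Ikbke-/- mock array Arc alone was called higher, by 1.49, against 2.31% of genes, and 0 members lower, against 3.13%.

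**Figure D3:**
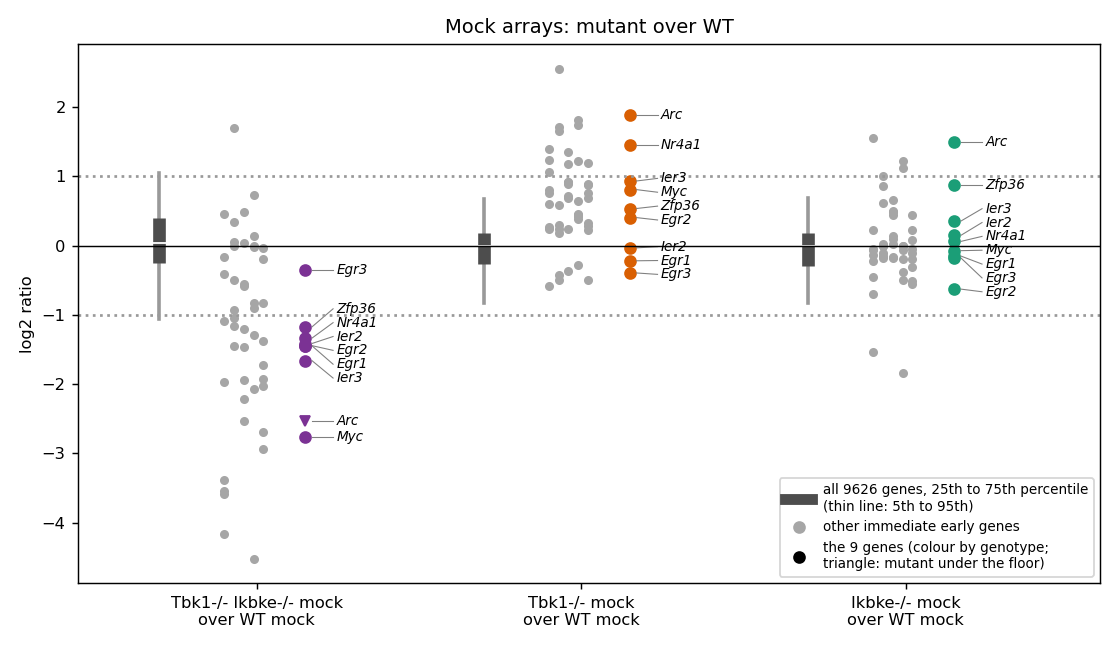
Log2 difference of each mutant mock array from the WT mock array for the 9 genes, beside 45 other immediate early genes (grey points) and the spread of all genes tested (bars). Of the members, 8 lie at or beyond 2-fold lower in the double mutant, and Arc and Nr4a1 lie beyond 2-fold higher in Tbk1-/- cells.

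With B-DNA, fewer members stood apart in the double mutant. On the double mutant B-DNA array 2 members were called lower than on the WT B-DNA array, against 6.78% of genes, and 0 higher, against 8.05%: Arc, at least 3.25-fold lower, and Myc, at a log2 difference of -1.61. In Tbk1-/- cells Egr2 (1.14), Arc (1.11) and Nr4a1 (1.92) were called higher, against 4.44% of genes, and Zfp36 (-1.33) was called lower, against 5.8%. In Ikbke-/- cells Arc was called higher at 2.51, against 2.87% of genes, and 0 members lower, against 3.58%.

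Tests with limma, adjusted by the Benjamini-Hochberg method over 9626 genes, called none of the 9 members. Tests of the response used the 8 arrays, and those of level used the mean of both arrays of each of the 4 genotypes. The fits took the floor for both double mutant values of Arc. For the average response to B-DNA over the 4 genotypes 0% of genes were called, and 761 genes had an unadjusted p under 0.05, Ier3 among them (log2 difference -0.45 ± 0.16 SE, limma adjusted p = 0.616). For the difference in response between cells lacking Tbk1 and cells with it, 0.239% of genes were called positive and 1.83% negative. The largest member values there were 1.13 ± 0.28 (SE) for Egr2, with a limma adjusted p of 0.129, and 1.13 ± 0.35 (SE) for Nr4a1, with 0.189. These were the 2 members with an unadjusted p under 0.05, as 16.5% of genes had. For the difference in response between cells lacking Ikbke and cells with it, limma called 0% of genes, and 435 (4.52%) had an unadjusted p under 0.05, among them the 4 members Arc, Egr1, Egr2 and Ier2. All 9 member estimates were positive there, with a median of 0.74 against -0.03 over all genes, and their limma adjusted p-values were 0.978 to 0.999. These estimates share the double mutant pair, and this test was not rerun without it. Between the Ikbke-/- and WT pairs alone, the log2 ratio was lower in Ikbke-/- cells for Nr4a1 (-1.18 against -0.97) and Zfp36 (0.67 against 1.19). It was higher there for the other members. Levels compared by Tbk1 and by Ikbke genotype gave 0% of genes called by limma, with 365 and 238 genes at an unadjusted p under 0.05, and an adjusted p of 1 for each member.

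Other genes of the pathway were read from lists chosen with earlier results of these data known. Of 45 other immediate early genes tested, 0 were called in double mutant cells, 3 lower in Tbk1-/- cells, 4 higher and 3 lower in Ikbke-/- cells, and 3 higher and 5 lower in WT cells. On the double mutant mock array 23 of the 45 were called lower than on the WT mock array and 1 higher, with a median log2 difference of -1.05. The 1 higher was F3, the tissue factor gene, which was named after its value had been seen. On the Tbk1-/- mock array 12 of the 45 were called higher and 0 lower, with a median of 0.68, and on the Ikbke-/- mock array 4 higher and 2 lower, with a median of -0.04. The limma test of the response by Tbk1 called 2 positive, Maff and Bhlhe40, and 1 negative, Mafk. Both double mutant values of Maff were among those set to the floor. Of 8 genes of the AP-1 transcription factor family, Atf3 was called higher in double mutant cells, Fos, Fosb and Atf3 lower in Tbk1-/- cells, and Fos lower in Ikbke-/- and in WT cells. Fos had 740.3 with B-DNA and 608 in mock double mutant cells, 1731 and 4556 in Tbk1-/- cells, 1600.3 and 3563 in Ikbke-/- cells, and 695 and 1406 in WT cells. Of the Egr corepressors, Nab1 and Nab2 were not called in any pair, at 802.6 to 1291 and 450.2 to 979.5. None of 10 genes of the Ras and MAP kinase cascade was called in any pair. Among 8 genes of SRF and its Elk and Mrtf partners and of Creb1 and Crebbp, Mrtfb was called higher in double mutant cells and Mrtfa lower in Ikbke-/- cells. Of 18 genes of the Zfp36 family and mRNAs with AU-rich elements, 4 were called higher in double mutant cells, 3 in Ikbke-/- cells and 4 in WT cells, and 0 in Tbk1-/- cells, and on the double mutant mock array 10 were lower than on the WT mock array and 1 was higher. The 1 higher was Zfp36l1, a relative of Zfp36, at a log2 difference of 1.92, named after its value had been seen.

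**Figure D4:**
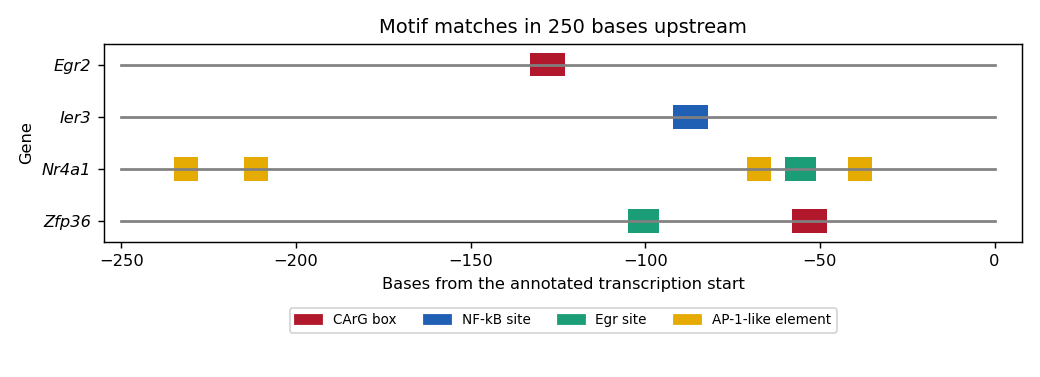
Position of the motif matches in the 4 promoters shown, as distance upstream of the start in bases. CArG boxes are in Egr2 and Zfp36, and Egr sites in Nr4a1 and Zfp36.

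Members varied together over the arrays to differing degrees. Pearson's r over the 8 arrays, which share scaling and cell source, was above 0 for 30 of 36 pairs of members, with a median of 0.58. No share over pairs of other genes stands beside this count. The highest was 0.96, for Egr1 and Ier2, and the lowest -0.51, for Egr3 and Nr4a1. Among 3114 genes that passed the floor on every array and varied over them by 1 or more on the log2 scale, the nearest to Myc was Csf1 (r = 0.99), to Ier3 1810055G02Rik (0.99), to Egr2 Runx1 (0.98), to Nr4a1 Snapc3 (0.98), and to Zfp36 Pfkfb3 (0.95).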

How the data were processed

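Array signals were measured in 8 samples, 1 per genotype and treatment. The intensity values are those the authors deposited, made with Microarray Suite 5.0, per the labels. GeneSpring is also named there, and the sources used here do not give its role or the scaling target. The array type named in the design text differs from that of the probe sets, so genes were named from the platform annotation table that matches them, updated through RefSeq by gene number. Of 22626 probe sets without controls, 20380 had 1 symbol, 691 several and 1555 none. Each array was scaled to a trimmed mean of 500 (2% off each end), floored at 122 and put on the log2 scale, and the brightest probe set stood for a gene. Tests used limma 3.58.1 in R 4.3.3 and were 2-sided. Tests of the response took genotype as a block, with 3 residual degrees of freedom for the average response and 1 for its dependence on genotype. Levels were compared on the 4 genotype means, with Tbk1 and Ikbke as additive terms and 1 residual degree of freedom. The number of arrays limits the precision. The code was tested on simulated data.

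The members and gene lists were chosen with earlier results of these data known. All members are named. Other genes are named where they pass a test, are among up to 6 of a list with the largest ratio in a pair, or are among the 3 nearest to a member by correlation. Alternatives were other scalings, floors, filters, thresholds and leaving out a genotype.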

Additional observations from a re-analysis of the deposited data

Results flagged for a closer look

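The response to B-DNA differed by Tbk1 genotype in the limma test across the 8 arrays for 199 genes, none of them a member, and 6 of these belong to the gene lists used here. The log2 difference, cells lacking Tbk1 minus cells with it, was 1.56 for Maff (limma adjusted p = 0.0326), 1.67 for Bhlhe40 (limma adjusted p = 0.0466) and 1.499 for Pdgfra (limma adjusted p = 0.0419). It was -2.25 for Mafk (limma adjusted p = 0.00625), -1.36 for S1pr1 (limma adjusted p = 0.0487) and -2.61 for Il6 (limma adjusted p = 0.00613). For Maff, the fit put the floor in place of both double mutant signals (87.6 with B-DNA, 21.8 in mock cells). Its signal in WT cells given B-DNA (31.6) was replaced in the same way. For Il6, the mock signals of Ikbke-/- (94.6) and double mutant (86.9) cells were replaced. The effect of these replacements on the Maff and Il6 values was not tested.

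A further 2 genes were called in opposite directions in different genotypes, a difference that was not tested. Atf3 had a log2 ratio of B-DNA over mock of 1.37 in double mutant and -1.09 in Tbk1-/- cells. Pim1 had -1.07 in Tbk1-/- cells, at least 1.20 in Ikbke-/- cells and at least 1.30 in WT cells. Its mock signals in Ikbke-/- and WT cells (73.3 and 30.2) were under the floor.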

How the results depend on the processing

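Of 194 recomputed counts, 178 stayed within 1.5 times the reported count. Of 832 recomputed single values, 806 were counted as unchanged, 15 reversed and 11 changed call. Direction was checked only for limma estimates and for ratios that were called in the reported setting. A ratio that was not called counted as unchanged while it stayed uncalled, even where its sign changed. Without further scaling, the median log2 ratio of genes above the floor on all arrays was 0.20 in double mutant, -0.14 in Tbk1-/-, -0.34 in Ikbke-/- and -0.48 in WT cells. At that setting 0 members were higher and 5 lower in the WT pair, and 8 had a ratio below 0 in the Ikbke-/- pair. How many of all genes met those rules without further scaling was not counted. At a common median, 2 were lower in the WT pair and 2 higher on the Ikbke-/- mock than on the WT mock array. At a threshold of 1.5-fold, 6 members were higher in the double mutant pair, 3 lower in the Tbk1-/- pair, 1 higher and 2 lower in the Ikbke-/- pair and 5 lower in the WT pair. At that threshold 4 were higher on the Tbk1-/- mock and 2 higher and 1 lower on the Ikbke-/- mock than on the WT mock array. The share of all genes at 1.5-fold, or at the other alternatives named here, was not computed. The shares given above hold for the reported setting only. With a floor at the 20th percentile, or an offset of 16, 1 member had a ratio below 0 in the double mutant pair. Among genes above the floor on all 8 arrays, limma called 1 member for dependence on Tbk1, Egr2 (1.13, limma adjusted p = 0.0499). The count of members lower on the double mutant mock array stayed at 7 to 9 under each alternative tried, all chosen after seeing the data. The cause of these changes was not tested.

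Leaving out 1 genotype at a time, limma called 0 members for the average response and for dependence on Tbk1. The average response then ran from -0.29 to 0.13 for Egr1, reversing at 0.13 without the WT and 0.05 without the Tbk1-/- pair, and from -0.13 to 0.38 for Myc, reversing without the double mutant pair. The fits for dependence on Tbk1 that left out a genotype also left out the term for the response by Ikbke, which the reported fit holds. Whether a reversal came from the pair or from that term was not tested. Dependence on Tbk1 ran from -0.022 to 0.997 for Egr1, -0.43 to 1.09 for Myc, -0.035 to 1.17 for Ier2 and -0.053 to 0.71 for Ier3, each lowest and reversed without the double mutant pair. It ran from -0.50 to 0.061 for Egr3 and -1.60 to 0.67 for Zfp36, reversed without the Tbk1-/- pair, and from -1.28 to 0.33 for Arc, reversed there and, at 0.03, without the Ikbke-/- pair. Without further scaling, dependence on Tbk1 was 0.10 for Egr3, and the level difference by Ikbke was -0.16 for Egr3 and -0.28 for Zfp36. At a common median that of Zfp36 was -0.015. The labels carry no replicate numbers, and the tests of the response compare B-DNA with mock within each genotype.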

Other observations

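Of 12 genes of the Myc network tested, 0 were called in double mutant or Tbk1-/- cells, 1 was higher and 1 lower in Ikbke-/- cells, and 2 were lower in WT cells. Of 25 Myc target genes, 2 were lower in double mutant cells, 0 were called in Tbk1-/- cells, 3 were lower in Ikbke-/- cells and 1 was lower in WT cells. On the double mutant mock array 6 of the 25 were lower than on the WT mock array and 0 higher. Of 13 growth factor receptors, 0 were called in double mutant or Tbk1-/- cells, 1 was higher and 1 lower in Ikbke-/- cells, and 2 were higher and 1 lower in WT cells.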
